A study of Mus musculus with 38 samples.

Results

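A set of 10 genes of drug detoxification and oxidative stress was followed in mouse mammary tumors: Aldh1a1, Aldh3a1, Gstp1, Gsta4, Gstm1, Nqo1, Hmox1, Gclc, Gclm and Txnrd1. The members are the non-control probes of the array that carry one of these gene names. The rule reads names and no measured value, but the names were chosen with earlier results of these data known. They are 12 of 41174 probes and 10 of 27962 gene names on the array. Hyperplasias from mice that carry both MMTV-PyMT and GFP under an actin promoter were transplanted into mammary fat pads of FVB/n mice, and GFP-positive cells were sorted from the outgrowths. The actin promoter is not restricted to mammary epithelium, so GFP marks the transplanted tissue rather than 1 cell type. The host mice were wild type. In the chemotherapy experiment, 6 untreated tumors (labelled Control) were compared with tumors of mice given TAC, that is docetaxel, doxorubicin and cyclophosphamide, beginning 2 months after transplantation. These were 6 residual tumors (labelled Regressed tumor), taken after the first dose, and 4 relapsed tumors (labelled Resistant tumor), taken after the fourth. In the progression experiment no drug was given, and the groups were 5 adenomas (early outgrowths), 6 carcinomas (late outgrowths), 6 samples of cells disseminated to the lung and 5 samples of lung metastases. Disseminated cells were pooled from the lungs of several mice with late outgrowths, and metastases were collected after the primary tumor had been removed. RNA of the progression experiment was amplified in 2 rounds and that of the chemotherapy experiment was labelled without the added round, so the experiments were never compared with each other. Ages of the mice are not in the labels.

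Cells remove drugs and reactive molecules in steps that these genes cover. Aldehyde dehydrogenases oxidize aldehydes, among them aldophosphamide, the intermediate from which active cyclophosphamide is released. Glutathione transferases couple electrophiles to glutathione, whose synthesis is limited by glutamate-cysteine ligase. Quinone reductase, heme oxygenase and thioredoxin reductase deal with quinones such as those of anthracyclines like doxorubicin, with free heme and with oxidized proteins. Many of these genes are switched on by the transcription factor Nrf2 (gene Nfe2l2), which is held back by Keap1 and binds antioxidant response elements.

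Promoter sequence was available from RefSeq (build GRCm38.p6) for 6 of the 10 genes, in 10 windows. The windows were read as the 250 bases before each annotated start and searched on both strands for the core of the antioxidant response element, TGACNNNGC, and for the AP-1 element, TGANTCA, motifs whose letters can overlap. Over all 32851 such windows of the table, 10.2% held the former and 6.75% the latter. The antioxidant core was found in Gclm and in 1 of 3 Txnrd1 windows, and the AP-1 letters in Gstp1 and in 1 of 2 Aldh1a1 windows, while the Nqo1 window and both Gstm1 windows held neither. Aldh3a1, Gsta4, Hmox1 and Gclc have no entry. Shown here are the windows of Txnrd1, Gclm, Nqo1 and Gstp1. Txnrd1 holds the core and rose in metastases against carcinomas, but did not pass against adenomas. Gclm holds the core and passed no test, and Nqo1 and Gstp1 fell in metastases. Capitals mark the motif, which stands on the opposite strand in Txnrd1 and Gclm, and each sequence runs 5′ to 3′ up to the base before the start.
Txnrd1 (chr10:82858956-82859205, plus strand): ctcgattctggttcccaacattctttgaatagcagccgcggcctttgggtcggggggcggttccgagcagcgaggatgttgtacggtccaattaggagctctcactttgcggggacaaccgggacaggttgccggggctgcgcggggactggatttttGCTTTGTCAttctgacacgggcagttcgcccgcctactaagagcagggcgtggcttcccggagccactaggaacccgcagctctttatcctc
Gclm (chr3:122245307-122245556, plus strand): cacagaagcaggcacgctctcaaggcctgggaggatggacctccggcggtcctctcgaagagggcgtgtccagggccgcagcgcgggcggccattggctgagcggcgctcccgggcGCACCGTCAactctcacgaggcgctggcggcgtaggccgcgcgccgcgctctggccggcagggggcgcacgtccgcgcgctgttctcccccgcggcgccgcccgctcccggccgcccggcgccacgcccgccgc
Nqo1 (chr8:107403206-107403455, minus strand): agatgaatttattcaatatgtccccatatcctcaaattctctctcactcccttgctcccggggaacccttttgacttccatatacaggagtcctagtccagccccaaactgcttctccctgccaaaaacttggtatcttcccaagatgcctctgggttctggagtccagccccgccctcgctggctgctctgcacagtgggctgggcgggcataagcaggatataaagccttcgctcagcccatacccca
Gstp1 (chr19:4037913-4038162, minus strand): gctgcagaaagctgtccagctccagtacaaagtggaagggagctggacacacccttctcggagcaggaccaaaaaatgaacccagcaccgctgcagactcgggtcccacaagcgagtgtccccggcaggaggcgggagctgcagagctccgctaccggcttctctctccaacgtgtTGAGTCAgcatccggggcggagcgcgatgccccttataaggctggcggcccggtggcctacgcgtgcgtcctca
The motif of Txnrd1 lies 92 to 84 bases before the start, and that of Gclm 134 to 126. A match of letters is not a bound site, and the searched window is short.

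Every value below is a log2 ratio of the sample to a common reference RNA, so 0 means a signal equal to the reference, and a gene's ratio says nothing of its level relative to another gene. Each of 38 arrays gave 43379 non-control spots, and 50.5 to 64.3% of all spots were well above background in the chemotherapy experiment and 48.4 to 78.9% in the progression experiment. A gene passed the test at an adjusted p below 0.05 in limma, over all 27962 genes. Probe positions are those of the array files, on build mm7. Arrays of a group correlated with each other at a median r of 0.891 to 0.940 in the chemotherapy experiment. In the progression experiment 4 arrays stood apart with a lower median r, namely disseminated replicate 6 (0.713), carcinoma replicate 6 (0.759), metastases replicate 4 (0.775) and disseminated replicate 4 (0.778). Nothing in the labels says that replicates are separate animals, so p-values measure the spread between these samples.

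The comparison of untreated, residual and relapsed tumors asks whether genes that handle cyclophosphamide and doxorubicin differ in the cells that remain after TAC. None of the 10 members passed the test in any of the 3 comparisons. Over all genes, 0.204% passed in residual against untreated, 0.0179% in relapsed against untreated and 0.279% in relapsed against residual tumors, so few genes of any kind passed. At an unadjusted p below 0.05 the counts of members were 0, 2 and 0 in limma and 1, 2 and 0 by an equal-variance test of the same groups without moderation, which passed none after adjustment. The share of all genes at an unadjusted p below 0.05 was not counted in any comparison. The median log2 change of the members was 0.03 in residual and -0.01 in relapsed against untreated tumors, and 0.05 in relapsed against residual tumors, where that of all genes was 0.02. The 95% intervals of the members lay between -0.73 and 1.46 in residual against untreated tumors and between -1.29 and 1.61 in relapsed against untreated tumors, and both upper ends belonged to Hmox1.

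**Figure D1:**
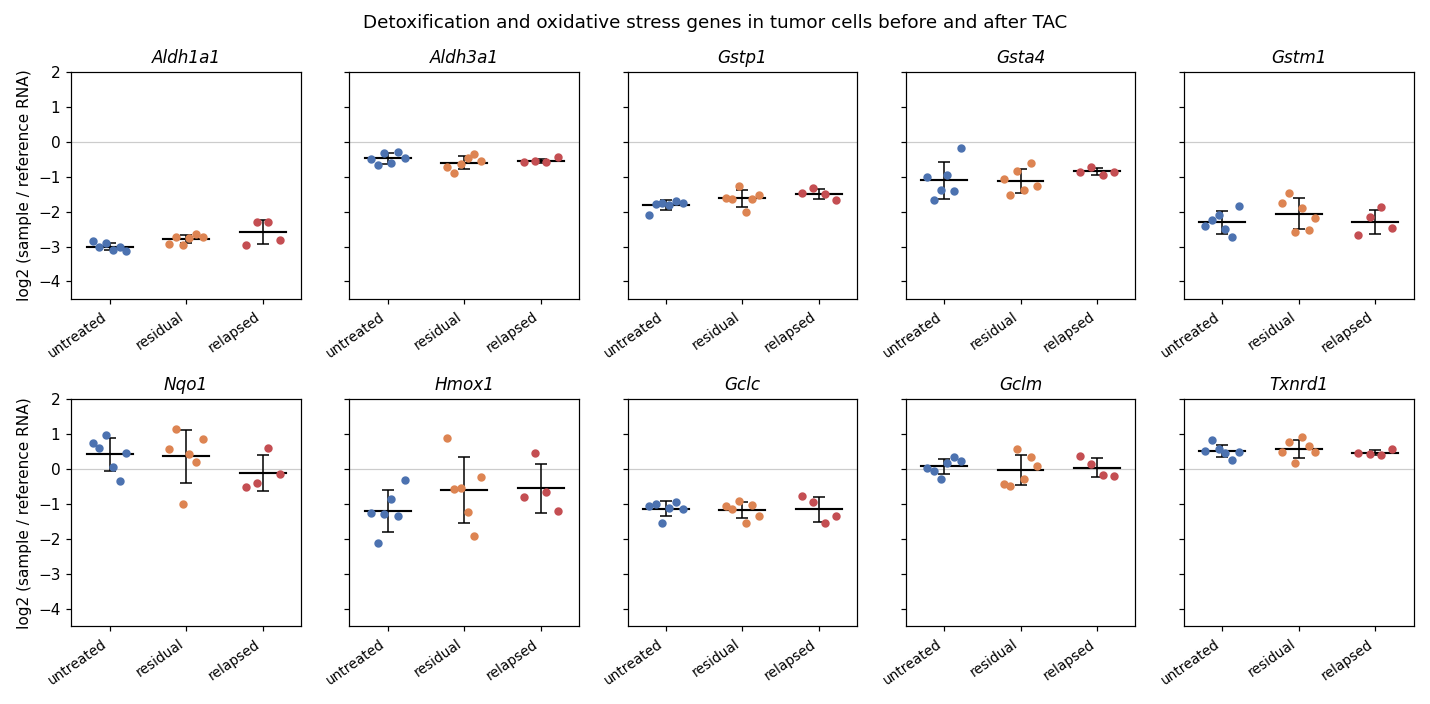
Log2 ratio of tumor to reference RNA (vertical axis) for the 10 genes in 6 untreated, 6 residual and 4 relapsed tumors. Each point is 1 tumor, the long line is the group mean and the bars are 1 SD. Groups overlap for every gene and pair, except that Gstp1 is higher in relapsed tumors (-1.67 to -1.32) than in untreated ones (-2.11 to -1.70).

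Aldh1a1, the aldehyde dehydrogenase that can oxidize aldophosphamide and retinal, lay well below the reference in all tumors. Its log2 ratio ran from -3.14 to -2.85 in untreated tumors (median -3.02) and from -2.94 to -2.65 in residual tumors (median -2.74). In relapsed tumors it was -2.95, -2.29, -2.28 and -2.80. Relapsed replicates 2 and 3 lay above every other tumor, whereas replicates 1 and 4 did not. The log2 change between relapsed and untreated tumors was 0.42 (standard error 0.12, limma adjusted p = 0.345), the smallest adjusted p of any member after chemotherapy. Aldh3a1, which oxidizes aromatic and medium-chain aldehydes, was not well above background in any of the 16 tumors, and no fold is given for it. The Aldh1a1 probe lies at chr19:20343581-20343640 and the Aldh3a1 probe within chr11:61297126-61297856.

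Among the glutathione transferases, Gstp1, an abundant form that also binds stress kinases, came closest to a shift. Its log2 ratio ran from -2.11 to -1.70 in untreated tumors (median -1.78) and from -2.01 to -1.27 in residual tumors (median -1.63), and was -1.47, -1.32, -1.49 and -1.67 in relapsed tumors. All 4 relapsed tumors lay above all 6 untreated tumors, a separation seen for 1.69% of all genes in this comparison. No member separated the groups of the other 2 comparisons, where 0.798% (residual against untreated) and 1.7% (relapsed against residual) of all genes did. The log2 change was 0.33 (standard error 0.12, adjusted p = 0.442), so the test was not passed. Untreated replicate 1 lay apart from the other untreated tumors, at -2.11 against -1.81 to -1.70. The probe (chr19:3930292-3930351) is annotated to Gstp1 and to its near copy Gstp2, and a Gstp1 probe without that double annotation had a mean of -1.85 ± 0.15 (SD over 6 tumors) in untreated and -1.66 ± 0.23 (SD over 4) in relapsed tumors. Gsta4, which conjugates the lipid peroxidation product hydroxynonenal, ran from -1.67 to -0.17 in untreated tumors and from -1.53 to -0.60 in residual tumors, and the narrower range of -0.95 to -0.71 in relapsed tumors lay inside the untreated range. Gstm1, a mu-class transferase, had group means between -2.30 ± 0.32 (SD, n = 6) and -2.06 ± 0.44 (SD, n = 6). Gsta4 is printed 10 times on each array (chr9:78241323-78242428), and the SD of its log2 ratio between spots of an array had a median of 0.05, against 0.53 between untreated tumors.

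Hmox1, which breaks down heme, and Nqo1, which reduces quinones, had the largest SDs of the members among residual tumors (0.94 and 0.75) and among relapsed tumors (0.70 and 0.51). For Hmox1 (chr8:73642229-73642288) the log2 ratio ran from -2.12 to -0.32 in untreated tumors (median -1.28) and from -1.91 to 0.88 in residual tumors (median -0.56), and was -0.80, 0.45, -0.65 and -1.19 in relapsed tumors. Its means were 1.52-fold higher in residual and 1.57-fold higher in relapsed than in untreated tumors, differences within the spread of the tumors (adjusted p = 0.701 and 0.822). Nqo1 (chr8:105988683-105988742) ran from -0.33 to 0.97 in untreated tumors (median 0.53) and from -1.02 to 1.15 in residual tumors (median 0.50), and was -0.52, -0.41, 0.61 and -0.15 in relapsed tumors. All relapsed values but that of replicate 3 lay below 0, and the log2 change against untreated tumors was -0.54 (95% interval -1.29 to 0.22, adjusted p = 0.804).

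For the enzymes of glutathione synthesis and thioredoxin reduction the group means lay close together, while single tumors spread more widely. Gclc, the catalytic subunit of glutamate-cysteine ligase (chr9:77835053-77835112), averaged -1.13 ± 0.21 over the 6 untreated tumors, -1.17 ± 0.23 over the 6 residual tumors and -1.15 ± 0.36 over the 4 relapsed tumors, with SDs after each mean. Gclm, its modifier subunit (chr3:122027477-122030112), had means of 0.07 ± 0.22, -0.03 ± 0.44 and 0.03 ± 0.27. Txnrd1, cytosolic thioredoxin reductase (chr10:82438991-82439050), had means of 0.52 ± 0.18, 0.58 ± 0.26 and 0.47 ± 0.08. The 95% interval of the log2 change in residual against untreated tumors was -0.34 to 0.27 for Gclc, -0.48 to 0.27 for Gclm and -0.17 to 0.31 for Txnrd1, so a 2-fold rise of any of these would lie outside it. Of 123 further genes in 9 lists of the same pathways, 0 passed in limma in each of the 3 comparisons. The lists ran from Nrf2 regulators to a list drawn up for cytochromes P450 of cyclophosphamide activation. At an unadjusted p below 0.05 their counts were 17, 13 and 10 in residual against untreated, relapsed against untreated and relapsed against residual tumors. The share of all genes at that level was not counted, so these counts have no base to be set against. For Nfe2l2 itself the log2 change was 0.34 in residual and 0.15 in relapsed against untreated tumors (adjusted p = 0.383 and 0.901).

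Slides could bear on these values, because untreated and residual tumors shared only slide 2. Within that slide the log2 difference between 2 residual tumors and 1 untreated tumor was 0.02 for Aldh1a1, 0.48 for Gstp1 and 1.42 for Hmox1. Within slide 5, 2 relapsed tumors differed from 1 untreated tumor by 0.59 for Aldh1a1, 0.17 for Gstp1 and -0.60 for Hmox1. In relapsed against untreated tumors the sign within slide 5 was opposite to that over all slides for Hmox1, for Gsta4 (-0.74 against 0.25) and for Gstm1 (-0.34 against 0.01). A list of 10 macrophage markers had mean log2 ratios of -1.0 to 1.42 in untreated, -1.11 to 0.60 in residual and -1.27 to -0.06 in relapsed tumors.

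In the progression experiment members passed the test most often in disseminated cells against the primary stages. Members that passed the test in limma numbered 0 between carcinomas and adenomas (1 at an unadjusted p below 0.05, and 1 by the test without moderation after adjustment), 7 between disseminated cells and adenomas, 8 between disseminated cells and carcinomas, and 3 in each comparison of metastases. Of all genes, 11.9% passed between carcinomas and adenomas, 20.9% between disseminated cells and adenomas and 26.8% between disseminated cells and carcinomas. For metastases the shares were 28.9% against adenomas, 22.2% against carcinomas and 13.2% against disseminated cells. The members split by direction: Aldh1a1, Gstm1, Hmox1, Gclc and Txnrd1 rose in disseminated cells against both primary stages, whereas Gsta4 and Nqo1 fell. Genes that were higher made up 8.37% of all genes in disseminated cells against adenomas and 9.22% against carcinomas, and genes that were lower 12.5% and 17.6%. The 7 members passed with changes of 2-fold or more against adenomas, as did all but Aldh3a1 against carcinomas. In disseminated cells the median log2 change of the members was 0.82 against adenomas and 1.10 against carcinomas, and that of all genes was -0.01 and -0.07, in comparisons that share the disseminated samples. In metastases 1 member rose and 2 fell in each comparison, where 13.1% and 15.8% of all genes were higher and lower than in adenomas, 7.96% and 14.2% than in carcinomas and 6.97% and 6.22% than in disseminated cells. 

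**Figure D2:**
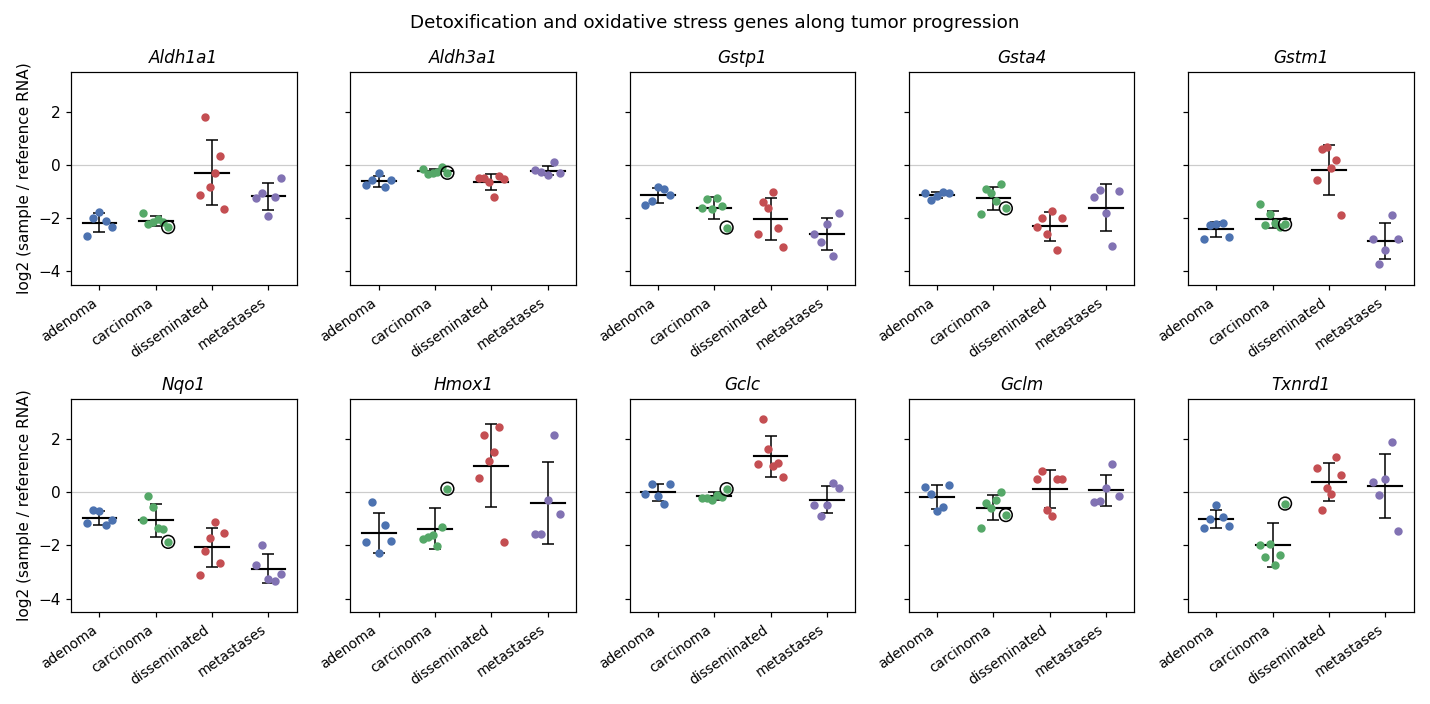
Log2 ratio of sample to reference RNA (vertical axis) for the 10 genes in 5 adenomas, 6 carcinomas, 6 samples of disseminated cells and 5 of metastases. Each point is 1 array, the long line is the group mean, the bars are 1 SD and the ring marks carcinoma replicate 6. Gclc is higher in all 6 samples of disseminated cells (0.56 to 2.76) than in any adenoma or carcinoma (at most 0.33), and Nqo1 is lower in all metastases (-3.32 to -1.97) than in any of them.

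Several lists of cell type markers differed between the same groups. All 10 macrophage markers on the array, led by Lyzs, were higher in disseminated cells than in adenomas, and the list's mean log2 ratio was -0.68 to -0.37 in adenomas, 2.81 to 4.44 in disseminated cells and 0.31 to 4.62 in metastases. It was -1.11 to -0.10 in carcinomas 1 to 5 and 4.23 in carcinoma replicate 6. Each of the 10 markers was well above background on every array of disseminated cells and metastases. Of 6 alveolar macrophage markers all 6 were higher in disseminated cells than in adenomas, with Chi3l3 up by 8.68 on the log2 scale, and of 8 lung epithelium markers 5 were higher and 1 lower. Neutrophil markers had list means of 1.58 to 2.00 in adenomas and 2.39 to 5.08 in disseminated cells, endothelial markers of 0.06 to 0.54 and 0.73 to 2.52, and erythroid markers of 0.89 to 1.85 and 2.25 to 3.20. Fibroblast markers did not rise, with list means of -3.50 to -1.72 in adenomas (median -2.58) and -4.76 to -1.22 in disseminated cells (median -3.55). Adipocyte markers overlapped, at 0.17 to 0.77 and 0.56 to 1.03. The mammary epithelium list had means of 3.65 to 4.38 in adenomas, 2.91 to 4.49 in carcinomas, 0.30 to 3.98 in disseminated cells and 0.33 to 4.21 in metastases, with disseminated replicates 3 and 5 and metastases replicate 4 below 1. All 10 mammary markers remained well above background on every array. The purity of the GFP sort and the part of these cells in the values of the members were not tested, and in sorted bulk RNA more cells of a type and more RNA per cell cannot be told apart.

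**Figure D3:**
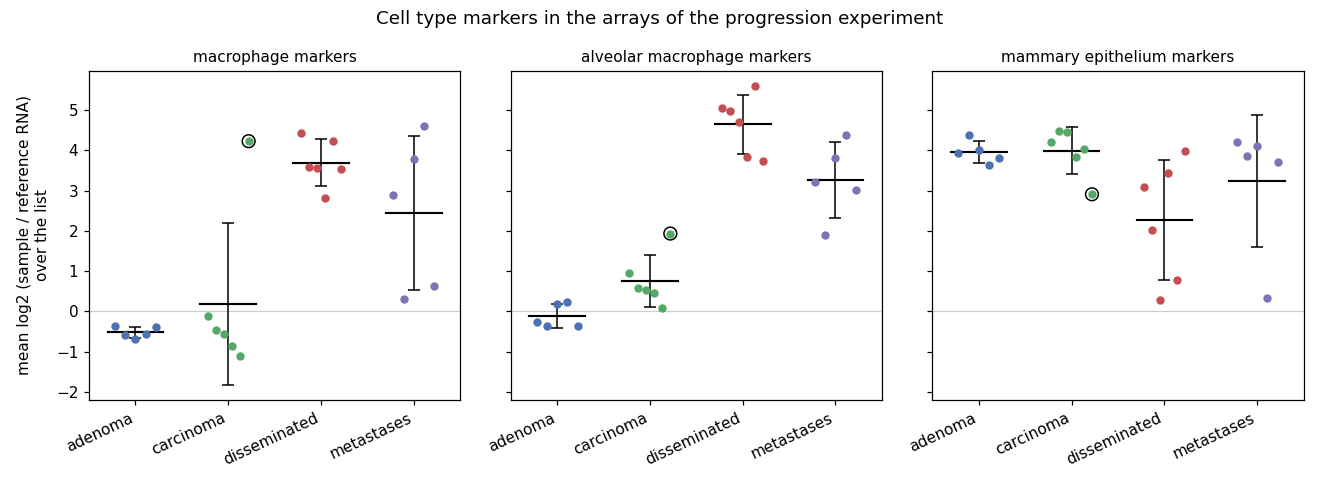
Mean log2 ratio of sample to reference RNA over the lists of 10 macrophage, 6 alveolar macrophage and 10 mammary epithelium markers (vertical axis) on the 22 arrays of the progression experiment. Points are arrays, long lines are group means, bars are 1 SD and the ring marks carcinoma replicate 6, which lies at 4.23 for macrophage markers where the other carcinomas are at most -0.10.

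Slides limit these comparisons further. Carcinomas and metastases were hybridized on slides 1 to 3 and scanned on 1 day, and adenomas and disseminated cells on slides 4 to 6 and scanned on another. Disseminated cells can therefore be compared with adenomas, and metastases with carcinomas, within slides. In every other pair the stage and the slide with its scan day cannot be told apart.

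Aldh1a1 was highest in disseminated cells. Its log2 ratio was -2.68, -1.98, -1.75, -2.12 and -2.34 in adenomas, and -2.33 to -1.81 in carcinomas (median -2.14). In disseminated cells it ran from -1.64 to 1.80 (median -0.56), and in metastases it was -1.23, -1.04, -1.92, -1.21 and -0.50. All disseminated samples lay above all adenomas and all carcinomas, and metastases lay between and overlapped with both sides. The log2 change was 1.89 against adenomas (standard error 0.42, adjusted p = 0.0044) and 1.83 against carcinomas (standard error 0.40, adjusted p = 0.00244), a 3.71-fold and a 3.54-fold rise. Within the 3 slides the difference from adenomas was 1.03, 1.93 and 2.49. The value in disseminated replicate 2, 1.80, was the highest, and this array had the highest lung epithelium mean (3.86). A relation between them was not tested. In metastases the change of 0.93 against carcinomas missed the threshold (adjusted p = 0.117) but passed when slides entered as fixed blocks (0.93, adjusted p = 0.0190, range over all alternatives 0.00806 to 0.235). The rise over adenomas did not pass by the test without moderation (adjusted p = 0.0683, range over all alternatives 0.00107 to 0.0683).

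Aldh3a1 was well above background in 1 of 5 adenomas, 5 of 6 carcinomas, 5 of 6 disseminated samples and 5 of 5 metastases, with means of -0.61 ± 0.20 (SD, n = 5), -0.24 ± 0.09 (SD, n = 6), -0.63 ± 0.29 (SD, n = 6) and -0.21 ± 0.18 (SD, n = 5). It passed at less than 2-fold as lower in disseminated cells than in carcinomas (-0.39, adjusted p = 0.0208) and as higher in metastases than in adenomas (0.40, adjusted p = 0.029) and disseminated cells (0.42, adjusted p = 0.0338). The adenoma level behind the value of 0.40 was measured above background on 1 array only, so the size of that difference is uncertain. These calls did not hold across normalizations: with median centring in place of loess the adjusted p was 0.0644, 0.136 and 0.0786. Without normalization between arrays the change of metastases against adenomas was 0.05 (adjusted p = 0.828).

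Gstm1 was highest in disseminated cells. Its log2 ratio (chr3:107830550-107830609) was -2.77, -2.24, -2.21, -2.17 and -2.70 in adenomas, -2.31 to -1.46 in carcinomas (median -2.21), -1.87 to 0.67 in disseminated cells (median 0.04), and -2.78, -3.73, -3.18, -1.88 and -2.78 in metastases. Disseminated cells lay above all adenomas and all metastases, and apart from replicate 6 (-1.87) above all carcinomas. The rise was 2.24 against adenomas (standard error 0.37, adjusted p = 0.000745) and 1.87 against carcinomas (standard error 0.35, adjusted p = 0.000896), and metastases fell by 2.69 below disseminated cells (standard error 0.37, adjusted p = 0.000189), a 6.47-fold difference. All these calls held under every alternative, and the other Gstm1 probe (chr3:107830934-107830993) gave 1.58, 1.67 and -2.07. Within slides the rise over adenomas was 1.26, 2.91 and 2.46. The gene most like it over the 22 arrays was Gstm3, of the same class, with a Pearson r of 0.995, and signal shared between such similar transcripts cannot be told apart here. When slides entered as fixed blocks Gstm1 was also lower in metastases than in carcinomas (-0.91, adjusted p = 0.0104), which did not pass without it (-0.83, adjusted p = 0.116, range over all alternatives 0.00489 to 0.284).

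Gsta4 and Gstp1 went the other way. Gsta4 was -1.05, -1.30, -1.18, -1.02 and -1.05 in adenomas, -1.85 to -0.71 in carcinomas (median -1.20) and -3.21 to -1.71 in disseminated cells (median -2.16), and -1.21, -0.94, -1.80, -3.05 and -0.99 in metastases. All disseminated samples lay below all adenomas. The log2 change was -1.18 against adenomas (standard error 0.32, adjusted p = 0.0142) and -1.05 against carcinomas (standard error 0.31, adjusted p = 0.0161), and within slides it was -1.12, -1.72 and -0.68 against adenomas. Metastases replicate 4, at -3.05, was the lowest metastasis and had a mammary epithelium mean of 0.33. A relation of Gsta4 to the mammary markers was not tested. Gstp1 was -1.49, -1.34, -0.83, -0.89 and -1.12 in adenomas, -2.35 to -1.23 in carcinomas (median -1.57), -3.08 to -1.02 in disseminated cells (median -1.99), and -2.58, -2.90, -2.22, -3.41 and -1.82 in metastases. Every metastasis lay below every adenoma. The log2 change in metastases was -1.45 against adenomas (standard error 0.34, adjusted p = 0.00373), which held under every alternative, and -0.97 against carcinomas (standard error 0.33, adjusted p = 0.0386). The latter call was lost when any of carcinoma replicates 1 to 5 or metastases replicates 1, 2 or 4 was left out (adjusted p 0.059 to 0.116), with the mean of both probes (-0.83, adjusted p = 0.0633), and the Gstp1 probe without the Gstp2 annotation (chr19:3930714-3931529) gave -0.69 (adjusted p = 0.128). That probe had means of -0.69 ± 0.17 (SD, n = 5) in adenomas and -1.63 ± 0.61 (SD, n = 5) in metastases. These lay closer together than the means of the brightest probe, -1.13 and -2.59. Within slides the difference of the brightest probe from carcinomas was -0.76, -1.36 and -0.96.

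Nqo1 was lowest in metastases. Its log2 ratio was -1.17, -0.66, -0.69, -1.21 and -1.04 in adenomas, -1.86 to -0.15 in carcinomas (median -1.20), -3.11 to -1.13 in disseminated cells (median -1.98), and -2.72, -1.97, -3.25, -3.32 and -3.08 in metastases. All metastases lay below all adenomas and all carcinomas, and disseminated cells overlapped with both. The log2 change in metastases was -1.91 against adenomas (standard error 0.35, adjusted p = 0.000579) and -1.81 against carcinomas (standard error 0.34, adjusted p = 0.00129), a 3.77-fold and a 3.5-fold fall, and both held under every alternative. Within slides the difference from carcinomas was -2.41, -2.21 and -0.35, the last from 1 metastasis and 2 carcinomas. In disseminated cells the change was -1.11 against adenomas (adjusted p = 0.0253) and -1.0 against carcinomas (adjusted p = 0.0265). The former was lost without disseminated replicate 1 or 5 or adenoma replicate 2 or 3 (adjusted p 0.0592 to 0.0652) and with the deposited log2 ratios (0.0549), the latter without disseminated replicate 1 or 5 or carcinoma replicate 2 or 3 (0.0641 to 0.0724), and neither passed by the test without moderation (0.0767 and 0.0936). Metastases against disseminated cells gave -0.80 (adjusted p = 0.129).

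Hmox1 had the largest mean rise of the members over adenomas, with the widest spread in disseminated cells. It was -1.88, -0.36, -2.28, -1.23 and -1.85 in adenomas, -2.01 to 0.13 in carcinomas (median -1.64), -1.87 to 2.45 in disseminated cells (median 1.35), and -1.58, -1.55, -0.27, 2.15 and -0.80 in metastases. Disseminated replicates 1 to 5 lay above every adenoma and carcinoma, whereas replicate 6 (-1.87, with a macrophage mean of 3.54) lay among them. Carcinoma replicate 6, the carcinoma with the high macrophage mean of 4.23, stood alone at 0.13, with the other carcinomas at -2.01 to -1.29. Metastases replicate 4, with the highest macrophage mean of all (4.62), was the highest metastasis. Whether Hmox1 follows the macrophage markers over the arrays was not tested. The log2 change was 2.51 against adenomas (standard error 0.71, adjusted p = 0.0166) and 2.36 against carcinomas (standard error 0.67, adjusted p = 0.0137), or 5.71-fold and 5.14-fold, and within slides 0.88, 2.92 and 4.12 against adenomas. By the test without moderation the adjusted p against adenomas was 0.0696 (range over all alternatives 4.07e-05 to 0.0696). With the 4 arrays that stood apart left out, the log2 change was 3.10 and 3.25, and the change from disseminated cells to metastases went from -1.40 (adjusted p = 0.209) to -2.63 (adjusted p = 0.000349). Among these arrays, disseminated replicate 6 was the lowest of its group, and carcinoma replicate 6 and metastases replicate 4 the highest of theirs. Leaving them out therefore enlarges these differences and adds no separate evidence for them.

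Gclc rose in disseminated cells and Gclm did not pass in any comparison, although their products form 1 enzyme. Gclc was -0.07, 0.29, -0.13, -0.44 and 0.33 in adenomas, -0.31 to 0.11 in carcinomas (median -0.19), 0.56 to 2.76 in disseminated cells (median 1.08), and -0.49, -0.90, -0.46, 0.34 and 0.15 in metastases. Every disseminated sample lay above every other sample of the experiment. The log2 change was 1.35 against adenomas (standard error 0.29, adjusted p = 0.00391), 1.5 against carcinomas (standard error 0.28, adjusted p = 0.000799) and -1.62 in metastases against disseminated cells (standard error 0.29, adjusted p = 0.00144). Within slides the rise over adenomas was 1.06, 1.05 and 2.01. By the test without moderation the adjusted p was 0.0502 against adenomas and 0.0797 for metastases against disseminated cells, the highest over all alternatives. Gclm had means of -0.17 ± 0.44 (SD, n = 5) in adenomas, -0.58 ± 0.47 (SD, n = 6) in carcinomas, 0.12 ± 0.71 (SD, n = 6) in disseminated cells and 0.08 ± 0.59 (SD, n = 5) in metastases. Its log2 change in disseminated cells was 0.29 against adenomas (95% interval -0.40 to 0.98) and 0.69 against carcinomas (95% interval 0.04 to 1.35, adjusted p = 0.111), which passed only without disseminated replicate 4 (adjusted p = 0.0306).

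Txnrd1 was the member that rose in metastases as well as in disseminated cells when set against carcinomas. Its log2 ratio was -1.33, -1.02, -0.48, -0.91 and -1.26 in adenomas, -2.74 to -0.42 in carcinomas (median -2.17), -0.66 to 1.31 in disseminated cells (median 0.40), and 0.39, -0.11, 0.51, 1.90 and -1.45 in metastases. Carcinomas 1 to 5 lay below every other sample, at -2.74 to -1.93, and carcinoma replicate 6 was apart from them at -0.42. The log2 change against carcinomas was 2.36 in disseminated cells (standard error 0.45, adjusted p = 0.00105) and 2.22 in metastases (standard error 0.48, adjusted p = 0.00294), or 5.13-fold and 4.67-fold, and these calls held under every alternative. Within slides the difference between metastases and carcinomas was 2.11, 3.10 and 1.28. In metastases against adenomas the log2 change was 1.25 and did not pass (limma adjusted p = 0.066, 0.0099 to 0.204 with 1 array left out). Metastases replicate 5 (-1.45) lay below every adenoma. Carcinomas differed from adenomas by -0.98 (limma adjusted p = 0.189). Against adenomas the rise in disseminated cells was 1.38 (adjusted p = 0.0449), a call lost in 16 of 22 fits with 1 array left out (adjusted p 0.0505 to 0.108), and within slides it was 1.89, 1.87 and 0.12. Txnrd1 holds the antioxidant core shown above in 1 of its windows, and so does Gclm, which passed no test.

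**Figure D4:**
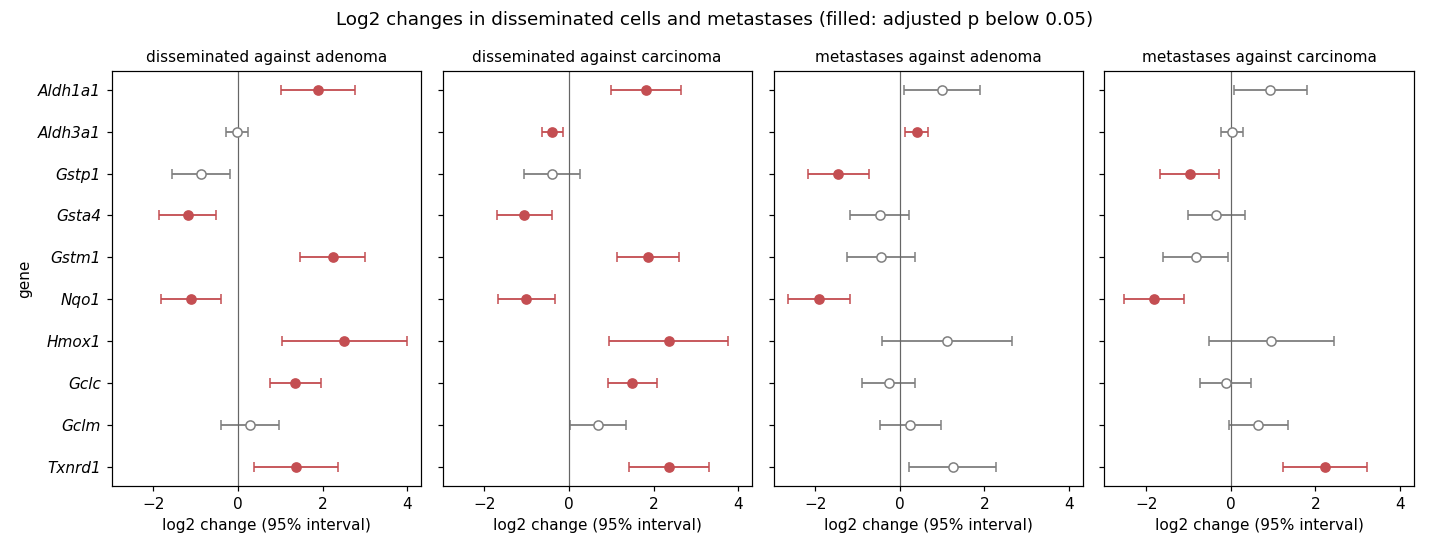
Log2 change of the 10 genes (horizontal axis) in disseminated cells and in metastases, each against adenomas and carcinomas. Points are limma estimates, bars are 95% intervals, and filled points passed at an adjusted p below 0.05. Gstm1, Hmox1, Aldh1a1, Gclc and Txnrd1 lie above 0 in disseminated cells, and Nqo1 lies below 0 in all 4 panels.

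Groups that did not overlap were counted apart from the test. There were 0 such members between carcinomas and adenomas (10.6% of all genes), 4 between disseminated cells and adenomas, 3 between disseminated cells and carcinomas, 2 between metastases and adenomas, 1 between metastases and carcinomas and 3 between metastases and disseminated cells. Of all genes 9.49%, 7.25%, 21.7%, 13.6% and 4.22% had groups that did not overlap in these comparisons. Stages were also put in the order of their means for each member, an order taken from these same values. The differences between neighbors that passed were disseminated cells over carcinomas for Gstm1, carcinomas over disseminated cells for Nqo1 and disseminated cells over adenomas for Gclc. The share of all genes with such differences was not counted.

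Other genes of these pathways were described from 9 lists with 123 measured genes, and the gene with the largest rise and the one with the largest fall of each list are named, on the log2 scale. Most of the named changes come from pairs of stages that share no slide. In those pairs the stage cannot be told apart from the slide with its scan day. Of the 123 genes, 22 rose and 20 fell in disseminated cells against adenomas, that is 17.9% and 16.3%, beside 8.37% and 12.5% of all genes. In metastases against carcinomas 14 rose and 24 fell (11.4% and 19.5%, beside 7.96% and 14.2% of all genes). Between carcinomas and adenomas 12 rose and 8 fell (9.76% and 6.5%, beside 7.05% and 4.82%). In metastases against adenomas 28 rose and 23 fell (22.8% and 18.7%, beside 13.1% and 15.8%). Disseminated cells against carcinomas gave 20 and 30 (16.3% and 24.4%, beside 9.22% and 17.6%). Metastases against disseminated cells gave 13 and 19 (10.6% and 15.4%, beside 6.97% and 6.22%). Among the regulators, Nfe2l2, which encodes Nrf2, rose by 2.74 (standard error 0.52, adjusted p = 0.00195) in disseminated cells against adenomas and by 1.96 (adjusted p = 0.0116) in metastases against carcinomas. Bach1, a repressor of Hmox1 and of other genes with antioxidant response elements, fell by 1.84 in metastases against disseminated cells (adjusted p = 0.0149). In the list of glutathione metabolism, Slc7a11, the cystine importer, rose by 3.44 (adjusted p = 0.0071) and Ggt1, which degrades extracellular glutathione, fell by 3.05 (adjusted p = 6.35e-05), both in metastases against adenomas.

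In the list of other glutathione transferases Gstm3 rose by 1.88 in disseminated cells against adenomas (adjusted p = 0.000821) and the microsomal Mgst3 fell by 2.86 in metastases against adenomas (adjusted p = 3.34e-05). In the thioredoxin list Prdx5 rose by 1.36 in disseminated cells (adjusted p = 0.00499) and mitochondrial Txn2 fell by 1.74 in metastases (adjusted p = 4.66e-05), each against adenomas. Sod2, the mitochondrial superoxide dismutase, rose by 2.27 in metastases against adenomas (adjusted p = 0.00635), and cytosolic Sod1 fell by 0.78 in disseminated cells against carcinomas (adjusted p = 0.00238). Among aldehyde dehydrogenases Aldh1a2, which makes retinoic acid, rose by 3.08 in disseminated cells against adenomas (adjusted p = 0.000215), and Aldh5a1, which oxidizes succinic semialdehyde, fell by 2.31 in disseminated cells against carcinomas (adjusted p = 0.002). Of carbonyl reductases, Cbr3 rose by 2.64 in disseminated cells against adenomas (adjusted p = 0.000563) and Akr7a5 fell by 1.97 in disseminated cells against carcinomas (adjusted p = 3.92e-05). In the list drawn up for cytochromes P450 of cyclophosphamide activation, Cyp2c65 rose by 0.31 in carcinomas (adjusted p = 0.047) and Cyp2c55 fell by 0.86 in metastases (adjusted p = 0.000459), both against adenomas. Whether these enzymes act on cyclophosphamide was not tested, and their signal relative to background is not given here. In the list of heme and iron handling Hp, which binds hemoglobin, rose by 3.99 in carcinomas (adjusted p = 0.00181) and the metallothionein Mt1 fell by 2.52 in metastases (adjusted p = 0.00235), both against adenomas.

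Patterns over the 22 arrays set the members apart from each other. The closest pair was Gclc and Gstm1 (Pearson r = 0.876), and the most opposed was Gsta4 and Hmox1 (r = -0.785). Among 13534 genes well above background on every array, those most like Hmox1 were Rasa4 (r = 0.910) and Abcc1 (r = 0.903), the latter an exporter of drugs and glutathione conjugates. Gclc was most like Gstm3 (0.884) and Slc40a1 (0.879), the iron exporter ferroportin. Aldh1a1 was most like Inmt (0.926) and Fhl1 (0.914), Nqo1 like Scrg1 (0.951) and Hdac6 (0.903), and Txnrd1 like Cyfip1 (0.955) and Azin1 (0.939). Next to Gstm1 came Gstm3 and Gpsm3 (0.932), next to Gstp1 Top3b (0.946) and Rpp21 (0.943), next to Gsta4 Pafah1b3 (0.915) and Pkp3 (0.910), and next to Aldh3a1 Ccdc51 (0.830) and C130006E23 (0.827). These coefficients describe arrays that share stages, slides and amplification.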

How the data were processed

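The 38 two-color Agilent arrays carried Cy5-labelled sample and Cy3-labelled reference RNA without dye swaps, 16 in the chemotherapy and 22 in the progression experiment. The authors deposited scanner intensity values per spot from Feature Extraction 10.7, its log10 ratios, which were not used here, and their own normalized log2 ratios. From the intensities, log2 ratios were made with normexp (offset 50), loess within arrays and quantile normalization among those of an experiment. The deposited log2 ratios served as an alternative and correlated with the recomputed ones at 0.966 to 0.998 per array, with medians of 0.00 to 0.05. Outlier spots were dropped and spots of a probe averaged, and each gene took its brightest probe.

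A limma model per experiment (R 4.3.3, limma 3.58.1) held all its groups, with moderated tests and Benjamini-Hochberg adjustment over 27962 genes. The procedure was tested on simulated data. Alternatives changed the background correction, normalization, probe choice, slide and replicate blocks, test (equal variance, without moderation) and thresholds, and left out each array. Fits without the 4 arrays that stood apart were added after the data were seen. The label Resistant tumor was taken as relapsed, being the only treated group besides Regressed tumor. The members and gene lists were chosen with earlier results of these data known. Named were all members, per list the largest passing rise and fall, and the 2 genes most like each member that passed. The number of arrays limits precision.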

Additional observations from a re-analysis of the deposited data

Results flagged for a closer look

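Each of 70 sets of values (10 genes in 7 groups) was searched for a sample far from the others of its group, and 5 values from 4 arrays stood apart by Dixon's test. Chance alone marks about 1 in 20 such sets, which is near the share found. In carcinoma replicate 6, Hmox1 had a log2 ratio of 0.13, with the nearest carcinoma at -1.29, and Txnrd1 one of -0.42, with the nearest at -1.93. The same array had a macrophage marker mean of 4.23. In disseminated replicate 4, Aldh3a1 lay at -1.21 and the nearest sample at -0.65. In the chemotherapy experiment, Gstp1 lay at -2.11 in untreated replicate 1 (nearest -1.81) and Gclc at -1.53 in untreated replicate 3 (nearest -1.14).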

How the results depend on the processing

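After chemotherapy the count of members that passed was 0 in each comparison under every alternative. The count was 1 between carcinomas and adenomas with only the groups compared, with the test without moderation and without disseminated replicate 4, metastases replicate 4 or adenoma replicate 3, and 2 without the 4 arrays that stood apart. In disseminated cells against adenomas it fell from 7 to 3 with the test without moderation and at an adjusted p below 0.01, and against carcinomas from 8 to 4 at that threshold. In metastases against carcinomas it rose from 3 to 5 with slide as a fixed block, and in metastases against disseminated cells it was 1 with the test without moderation. With each array left out in turn the counts ran from 0 to 1 in carcinomas against adenomas, 5 to 8 and 7 to 9 in disseminated cells against adenomas and carcinomas, 2 to 4 in metastases against adenomas and against carcinomas, and 2 to 5 against disseminated cells, the highest without disseminated replicate 6. No called change of a member turned its sign, and 10 of 24 calls held under all alternatives. Slide as a fixed block could not be fitted for pairs that share no slide.

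Nothing in the labels says that replicate numbers pair samples. Deviations of samples with the same number correlated at -0.415 to 0.426. Samples with different numbers were not correlated, so this range cannot decide whether numbers pair samples. With the replicate number as a block the counts were 0 in the 3 chemotherapy comparisons and in carcinomas against adenomas, 6 and 8 in disseminated cells against adenomas and carcinomas, and 2, 4 and 2 in metastases against adenomas, carcinomas and disseminated cells. The cause of these shifts was not tested.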
